A study of Mus musculus with 37 samples.

Results

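A set of 7 genes of vitamin A uptake and retinoid metabolism, Rbp2, Adh1, Aldh1a1, Dhrs3, Crabp2, Isx and Rara, were followed by their symbols through 3 RNA sequencing experiments on mouse jejunal organoids, which are cultures of intestinal epithelium grown from crypts. They are 7 of 27407 genes in the table of whole organoids, 6 of 20500 in that of sorted Lgr5-EGFP+ cells (which has no row for Crabp2) and 7 of 27547 in that of the irradiation experiment. The genes were selected on their known changes with VIP and irradiation in these same samples, so their fold changes in those comparisons are given as a description and carry no p-value. Organoids came from the jejunum of male and female mice aged 6 to 12 weeks and were treated with 100 nM vasoactive intestinal peptide (VIP), a neuropeptide of the enteric nervous system, or left untreated. Whole organoids of C57Bl/6 mice received VIP for 72 h (3 untreated and 4 VIP-treated cultures). Lgr5-EGFP+ cells, in which a green reporter is driven from the locus of the stem cell gene Lgr5 in Lgr5-EGFP-IRES-CreERT2 mice, were sorted from organoids with or without VIP for 72 h (4 and 4 cultures). In the irradiation experiment the same reporter cells were sorted from organoids given 6 Gy of X-rays or none, with or without VIP for 48 h (4 groups of 4 cultures, each group from the same 4 mice). The mouse number in the labels pairs the cultures, each of which is an organoid line of 1 animal.

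Dietary vitamin A enters enterocytes as retinol, or as carotenoids that are cleaved to retinal. Inside the cell retinol is held by cellular retinol-binding protein, which in the small intestine is chiefly the product of Rbp2, and is then esterified for export in chylomicrons or oxidized first to retinal and then to retinoic acid, the ligand of nuclear receptors. Adh1 encodes an alcohol dehydrogenase that can oxidize retinol to retinal. Aldh1a1 encodes a retinal dehydrogenase that makes retinoic acid, and Dhrs3 a reductase that returns retinal to retinol. Crabp2 encodes a binding protein that carries retinoic acid to the nucleus, Rara the retinoic acid receptor alpha, and Isx an intestinal homeobox factor that represses the carotenoid importer Scarb1 and the carotenoid-cleaving enzyme Bco1.

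On GRCm38 with GENCODE M21 the 7 genes lie on 6 chromosomes, all on the forward strand and all protein-coding: Rbp2 at chr9:98486115-98509781, Adh1 at chr3:138260991-138290698, Aldh1a1 at chr19:20492715-20643465, Dhrs3 at chr4:144892827-144928209, Crabp2 at chr3:87948666-87953376, Isx at chr8:74873173-74893506 and Rara at chr11:98927818-98974942. Adh1 overlaps the antisense gene Gm16559 and Aldh1a1 overlaps C730002L08Rik on the other strand, and whether the counting used strand is not given in the sources used here. Aldh1a1 also has a close paralogue, Aldh1a7, so reads of shared stretches could have been assigned to either gene. RefSeq promoter windows on GRCm38.p6 were found for 6 of the 7 genes. The 250 bases before the start site are shown for the 3 genes whose levels moved most in the comparisons that follow, Rbp2 (chr9:98490287-98490536), Adh1 (chr3:138277335-138277584) and Aldh1a1 (chr19:20601718-20601967, 1 of 2 windows in the table), all on the forward strand and read 5′ to 3′. Capitals mark every match, on either strand, to 4 short words. The word AGGTCA is a core site of nuclear receptors. The word CAAAGG was searched as well. The word AGATAA is bound by GATA factors, and the TATA box was searched as TATAAA.
Rbp2: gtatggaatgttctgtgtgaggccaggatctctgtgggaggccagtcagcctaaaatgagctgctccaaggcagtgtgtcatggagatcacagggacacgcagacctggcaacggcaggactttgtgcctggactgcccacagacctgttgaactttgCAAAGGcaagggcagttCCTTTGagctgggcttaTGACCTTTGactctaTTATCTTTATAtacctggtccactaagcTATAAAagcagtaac
Adh1: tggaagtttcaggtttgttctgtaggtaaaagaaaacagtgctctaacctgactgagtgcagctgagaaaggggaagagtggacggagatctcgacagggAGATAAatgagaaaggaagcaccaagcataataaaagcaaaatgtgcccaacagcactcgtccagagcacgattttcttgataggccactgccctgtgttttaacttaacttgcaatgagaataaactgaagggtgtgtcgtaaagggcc
Aldh1a1: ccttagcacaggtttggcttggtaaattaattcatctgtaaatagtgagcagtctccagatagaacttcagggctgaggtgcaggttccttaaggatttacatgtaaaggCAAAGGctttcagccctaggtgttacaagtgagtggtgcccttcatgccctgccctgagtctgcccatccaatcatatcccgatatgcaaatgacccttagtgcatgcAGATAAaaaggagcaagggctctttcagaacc
The Rbp2 window held 1 match to AGGTCA (58 to 53 bases before the start), 3 to CAAAGG, 1 to AGATAA and 2 to TATAAA. Its match to AGGTCA and the nearest one to CAAAGG (55 to 50 bases before the start) share bases, as do those to AGATAA and TATAAA at 38 bases before the start. The Adh1 window held 1 match to AGATAA (150 to 145 bases before the start), and its RefSeq start lies 91 bases from the principal start of GENCODE. The Aldh1a1 window held 1 match to CAAAGG and 1 to AGATAA (32 to 27 bases before the start). The windows of Dhrs3, Isx and Rara held no match to these 4 words. Of all 32851 windows of this length in the table, 14.0% held AGGTCA, 17.6% CAAAGG, 9.99% AGATAA and 12.4% TATAAA, so single matches are common. None of the 6 windows held the cAMP response element TGACGTCA (1.55% of all windows), the CDX site TTTATG (10.8%) or a direct repeat of AGGTCA or AGTTCA with a spacing of 1, 2 or 5 bases (0.067%, 0.0365% and 0.0335%). Only exact words were searched, so repeats with a changed base are missed and their absence is not shown.

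Counts were unique molecular identifiers (UMIs), 1 per captured transcript molecule, at 3722716 to 6330404 per culture in whole organoids, 575242 to 1104126 in the sorted cells of the 72 h experiment and 1075715 to 1876729 in the irradiation experiment. Levels are given as CPM, the UMIs of a gene per 1000000 UMIs of its culture, and fold changes come from edgeR's quasi-likelihood fit across all genes with the mouse as a block. A gene was called at a Benjamini-Hochberg adjusted p of at most 0.05. Whole organoids were sequenced as pairs of technical libraries that were summed, apart from untreated mouse 3 with 1 library. For Adh1 and Aldh1a1 the second library of VIP-treated mouse 3 stood apart from the other 7 VIP-treated libraries, near the untreated ones. For Rbp2, Isx and Rara it lay within the range of the other 7. In the untreated sorted cells the Lgr5 transcript itself was lower than in untreated whole organoids (log2 difference -1.35 ± 0.36 SE, adjusted p = 0.0107 by edgeR), while 3 of the 7 stem cell markers tested, Olfm4 (0.89 ± 0.33, adjusted p = 0.0456), Ascl2 (0.74 ± 0.17, adjusted p = 0.00557) and Gkn3 (1.57 ± 0.24, adjusted p = 3.65e-04), were higher. Paneth cell markers summed to medians of 9789 (72 h experiment) and 11290 CPM (irradiation experiment) in these sorted cells, against 12410 CPM in untreated whole organoids. Goblet cell markers summed to 6613 and 6104 CPM, against 5480 CPM. In sorted cells 2 of 6 Paneth markers were called lower, and of 7 goblet markers 1 was called higher and 3 lower. Of 6 enteroendocrine markers tested 3 were called higher, and of 2 tuft cell markers 2. Over all 10649 genes tested between these compartments 35.3% were called (17.7% lower), so nothing is read from these counts. Epcam, which marks epithelium, was at 796 to 1411 CPM in every culture, and 9 genes of fibroblasts, immune cells and endothelium summed to at most 9.06 CPM in any of them.

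In whole organoids the transcripts of 2 enzymes that can make retinal and retinoic acid, Adh1 and Aldh1a1, were lower with VIP. Those of the receptor Rara, the factor Isx and the reductase Dhrs3 were not called. Adh1 was at 1479, 1545 and 1499 CPM in the 3 untreated cultures and at 984, 1028, 897 and 998 CPM in the 4 VIP-treated ones. The 2 groups did not overlap, and the spread of the summed cultures within each was small beside the gap between them. The share of all genes without overlap is not given here. Since the genes were chosen on these changes, nothing is read from a lack of overlap, here or in the other VIP and irradiation comparisons. The VIP-treated culture of mouse 3 (897 CPM) was the sum of libraries at 579 and 1401 CPM, a spread that the summed values hide. Adh1 fell by 0.65 on the log2 scale (SE 0.087), in 3 of 3 mice with both cultures. Aldh1a1 was at 109, 138 and 199.9 CPM without and at 62.8, 85.6, 78.8 and 65.0 CPM with VIP, again without overlap. It fell by 0.95 (SE 0.13), in 3 of 3 mice, and without the mouse block by 1.04 (SE 0.22), which was not called. Its paralogue Aldh1a7 had a log2 fold change of 0.00 ± 0.13 (adjusted p = 0.994 by edgeR). In bulk RNA of organoids, fewer cells of a type and less RNA per cell cannot be told apart.

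Rbp2 gave another picture in whole organoids. Its untreated cultures held 629, 536 and 1281 CPM and its VIP-treated cultures 552, 616, 627 and 450.3 CPM, so that the untreated culture of mouse 3, the one with a single library, stood far above the other 6, which lay close together. The log2 fold change was -0.35 ± 0.18 (SE) and was not called. Without mouse 3 it was 0.03 ± 0.086, and without mouse 2 it was -0.63 and called. It was also called without the filter on low counts (-0.34). Dhrs3 was at 52.7, 54.1 and 29.8 CPM without VIP and at 39.6 to 40.9 CPM with it, a log2 fold change of -0.16 ± 0.14 that was not called. The VIP-treated culture of mouse 3 (39.6 CPM) was the sum of libraries at 23.9 and 64.6 CPM. The low untreated value was that of mouse 3, and without this mouse Dhrs3 fell by 0.37 on the log2 scale and was called. Isx was at 123, 116 and 96.7 CPM without and 115 to 124 CPM with VIP (0.10 ± 0.093), and Rara at 27.3 to 31.9 CPM without and 26.3 to 31.9 CPM with VIP (-0.04 ± 0.14). Both overlapped between the groups.

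Of the 7 genes, 6 passed the filter on low counts in whole organoids and 2 were called, both lower. Of all 12727 genes tested 4.82% were called in either direction and 1.10% lower. The 6 had a median log2 fold change of -0.25 (-0.00 over all genes), from which nothing is read, since they were chosen on these changes. Among single libraries Adh1 was at 1450 to 1626 CPM in the 5 untreated ones, at 579 to 1033 CPM in 7 VIP-treated ones and at 1401 CPM in the second library of VIP-treated mouse 3. Aldh1a1 followed the same order, at 101 to 199.9, 58.7 to 86.6 and 107 CPM. Without that library Adh1 fell by 0.84 and Aldh1a1 by 1.04 on the log2 scale, both still called, and Dhrs3 fell by 0.37 and was called.

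**Figure D1:**
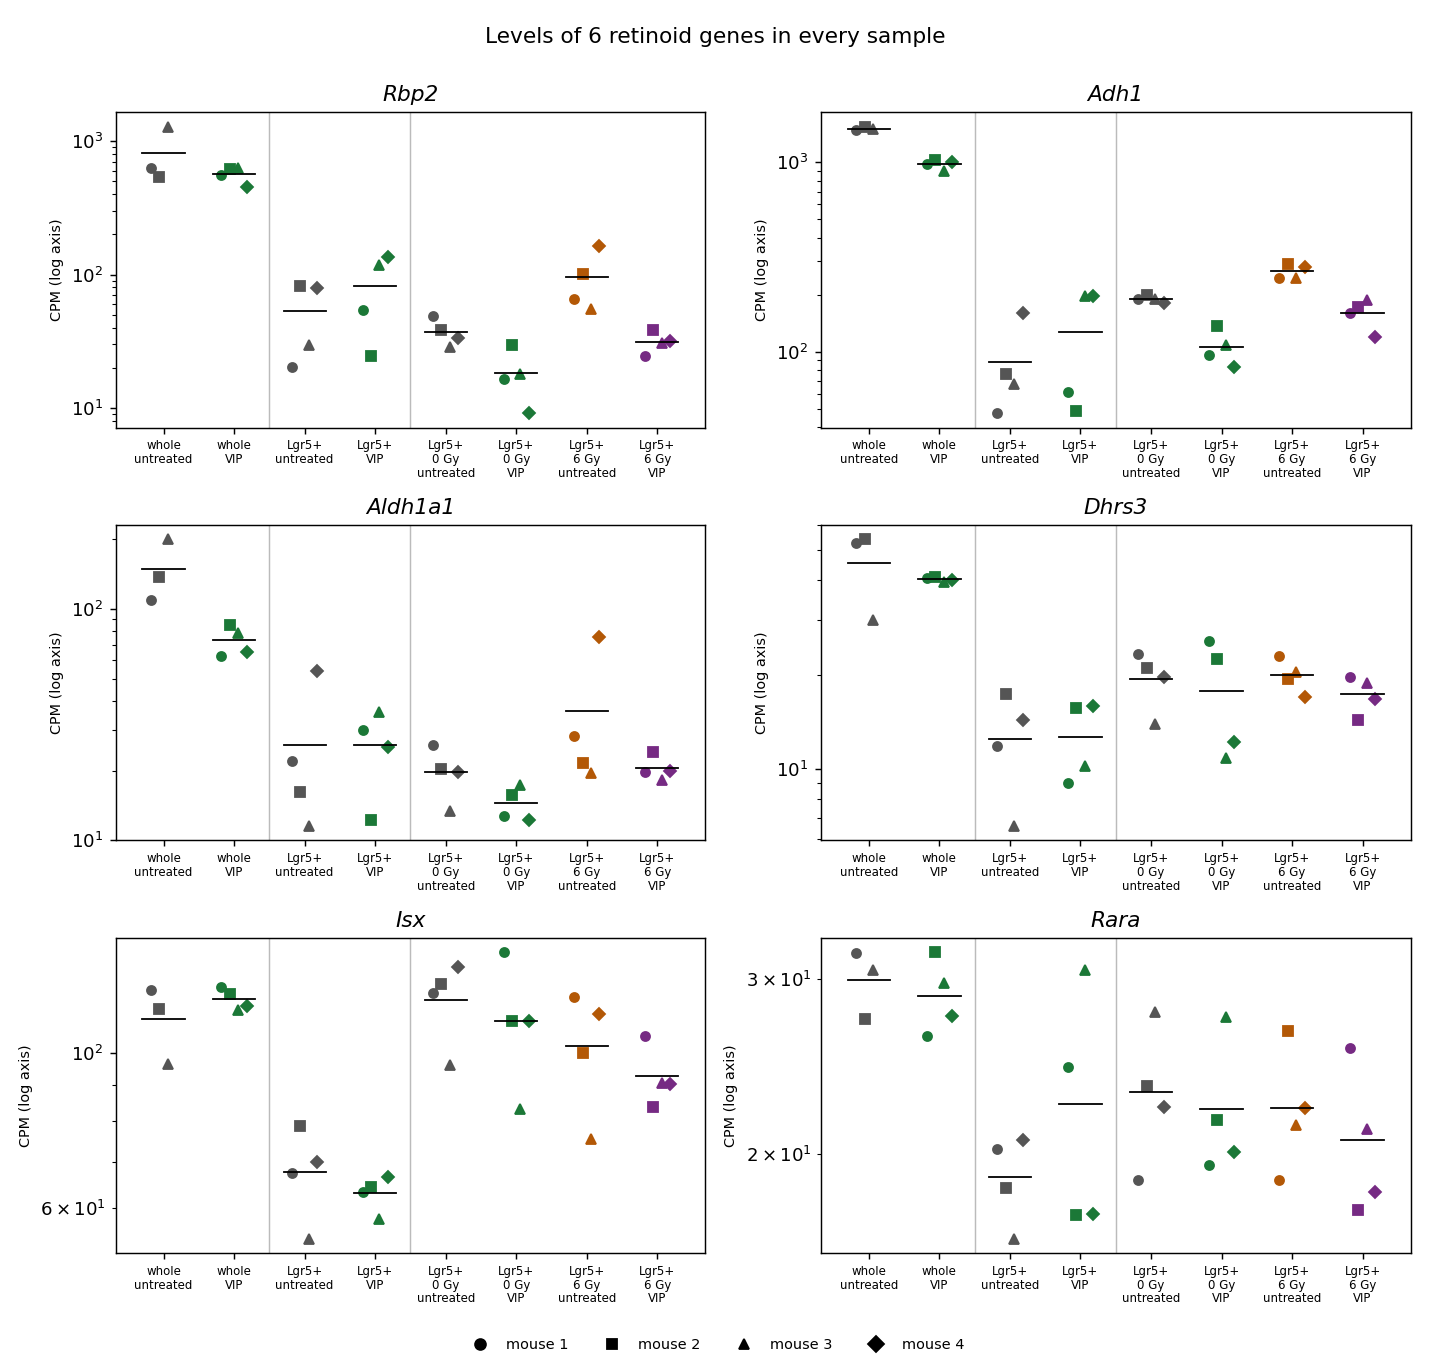
CPM of 6 of the 7 genes (log axis) in every culture, by group, with a symbol per mouse and a line at the group mean (Lgr5+ stands for sorted Lgr5-EGFP+ cells). Adh1 at 897 to 1028 CPM in VIP-treated whole organoids lies below all 3 untreated cultures (1479 to 1545 CPM), and Rbp2 and Adh1 are lower in every sorted group than in whole organoids.

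A list of 53 further retinoid genes, ordered by role, was set beside them, and 35 were tested in whole organoids, of which 7 were called (3 higher and 4 lower, median of all 35 -0.04). Among retinoid-binding proteins Fabp5, a fatty acid-binding protein that can also carry retinoic acid, rose by 0.66 ± 0.16 on the log2 scale (adjusted p = 0.0244 by edgeR's quasi-likelihood test, as are the values that follow), and Ttr, the plasma carrier partner of retinol-binding protein, fell by 0.56 on the log2 scale (SE 0.12, adjusted p = 0.0176). Among enzymes between retinol and retinal, Rdh10, the retinol dehydrogenase that supplies retinoic acid synthesis, rose by 0.76 ± 0.11 (adjusted p = 7.09e-04), whereas Rdh7 fell by 0.93 (SE 0.11, adjusted p = 2.63e-04) and Dhrs4, which reduces retinal and other carbonyls, fell by 0.49 (SE 0.11, adjusted p = 0.0183). Ces1f, a carboxylesterase listed with retinyl ester hydrolysis, fell by 0.90 (SE 0.15, adjusted p = 0.00259). Each of these 6 genes moved in its direction in 3 of 3 mice.

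No gene of carotenoid uptake and cleavage (5 tested), of the receptors and co-repressors (6 tested) or of retinoic acid breakdown and targets (1 tested each) was called in whole organoids. The 7 calls differ in how firmly they hold. Without the mouse block none of the 7 was called. Rdh7, Rdh10 and Ces1f were called in the other 11 alternatives. These include leaving out mouse 4, which has no untreated culture and so adds no difference within a mouse. Dhrs4 also lost its call without mouse 1, and Fabp5 and Ttr without mouse 1 or mouse 2, and DESeq2 called neither Fabp5 nor Ttr. Over the alternatives the adjusted p reached 0.759 for Dhrs4, 0.381 for Fabp5 and 0.622 for Ttr. The library that stood apart also had the lowest Rdh10 of all (23.7 CPM, against 34.6 to 57.5 CPM in untreated and 39.6 to 137 CPM in the other VIP-treated libraries).

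In sorted Lgr5-EGFP+ cells treated with VIP for 72 h none of the 5 genes tested was called by edgeR or DESeq2, in a comparison that called 6 of 6778 genes (0.0885%, with 373 genes at an unadjusted p under 0.05). Rbp2 was at 20.2, 82.1, 29.6 and 79.5 CPM in untreated mice 1 to 4 and at 54.3, 24.3, 117 and 135 CPM in the same mice with VIP. It was higher in 3 of 4 mice and lower in mouse 2, with a log2 fold change of 0.56 ± 0.30. Adh1 was at 47.2, 76.3, 67.4 and 161 CPM without and 61.6, 48.7, 197 and 198 CPM with VIP, with the same 3 mice higher (0.40 ± 0.21). The spread between mice was as wide as the levels themselves, and rested on 12 to 85 UMIs per culture for Rbp2. Without mouse 2 the Rbp2 fold change was 1.23 and was called.

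Aldh1a1 was at 11.5 to 54.1 CPM without and 12.2 to 35.7 CPM with VIP (log2 fold change 0.01 ± 0.34), Isx at 54.3 to 78.6 and 57.9 to 66.5 CPM (-0.13 ± 0.19) and Rara at 16.4 to 20.7 and 17.4 to 30.6 CPM (0.19 ± 0.32). All 3 overlapped between the groups. Dhrs3, with 4 to 15 UMIs per culture, did not pass the filter and stood at 6.58 to 17.3 CPM without and 9.06 to 15.8 CPM with VIP. Of the 53 other retinoid genes 17 were tested and 0 called by edgeR or DESeq2, with 4 at an unadjusted p under 0.05. Whether the effect of VIP on Adh1 in these cells differs from that in whole organoids was not tested.

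In the irradiation experiment, where VIP was given for 48 h, Adh1 was lower with VIP both without irradiation and after 6 Gy. Without irradiation it was at 189.7, 199, 191 and 182 CPM in untreated mice 1 to 4 and at 96.1, 137, 108 and 82.8 CPM with VIP. The groups did not overlap, and Adh1 fell by 0.86 on the log2 scale (SE 0.11), in 4 of 4 mice. After 6 Gy it was at 243.5, 291, 246 and 281 CPM without and at 159, 173, 188 and 120.2 CPM with VIP, again without overlap. It fell by 0.76 (SE 0.10), in 4 of 4 mice.

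Rbp2, the retinol-binding protein of enterocytes, was lower with VIP in every mouse under both conditions. Without irradiation it was at 49.0, 38.2, 28.9 and 33.4 CPM in untreated mice 1 to 4 and at 16.5, 29.8, 17.9 and 9.14 CPM with VIP. The lowest untreated value lay just under the highest treated one, and the log2 fold change of -1.07 ± 0.30 was not called, though it was without the filter on low counts and in a fit of these 2 groups alone. After 6 Gy it was at 65.9, 101, 54.8 and 163 CPM without and at 24.5, 38.4, 30.6 and 31.8 CPM with VIP, without overlap. It fell by 1.60 on the log2 scale (SE 0.24), which is 3.03-fold, and was called.

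Aldh1a1 was at 25.8, 20.4, 13.3 and 19.7 CPM in untreated, not irradiated mice 1 to 4 and at 12.8, 15.7, 17.3 and 12.2 CPM with VIP (-0.45 ± 0.33, lower in 3 of 4 mice, not called). After 6 Gy it was at 28.2, 21.6, 19.5 and 75.7 CPM without and at 19.7, 24.0, 18.2 and 19.9 CPM with VIP (-0.77 ± 0.28, lower in 3 of 4 mice, not called). Mouse 4 alone gave the high value, and without it the fold change after irradiation was -0.19. Without the filter on low counts Aldh1a1 was called with VIP after irradiation. Dhrs3, Isx and Rara had log2 fold changes with VIP of -0.16, -0.12 and -0.06 without irradiation and of -0.18, -0.15 and -0.12 after it, with SEs from 0.10 to 0.22, and none was called. Of the 6 genes tested 1 was called with VIP without irradiation and 2 after it. Over all 9976 genes tested the shares called were 0.742% (0.261% lower) and 0.221% (0.0902% lower). Since the genes were chosen on these changes, nothing is read from their counts beside such shares, here or in the other VIP and irradiation comparisons.

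Irradiation raised Rbp2 and Adh1. In untreated cells Rbp2 rose from 28.9 to 49.0 CPM to 54.8 to 163 CPM without overlap, by 1.31 ± 0.23 on the log2 scale, and Adh1 rose from 182 to 199 CPM to 243.5 to 291 CPM, also without overlap, by 0.49 ± 0.10. Both were higher in 4 of 4 mice. Aldh1a1 was higher in 4 of 4 mice too, by 0.79 ± 0.28, but was not called unless the filter on low counts was left out, and without mouse 4 its fold change was 0.23. Isx was lower in 4 of 4 mice, at 96.2 to 133 CPM without and 75.3 to 121 CPM with irradiation (-0.21 ± 0.10, not called). Dhrs3 (0.03 ± 0.22) and Rara (-0.04 ± 0.19) stayed near 0.

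In VIP-treated cells Adh1 rose with irradiation by 0.59 ± 0.11, from 82.8 to 137 CPM to 120.2 to 188 CPM, ranges that overlap, and in 4 of 4 mice. Rbp2 was higher in 4 of 4 mice as well, at 9.14 to 29.8 CPM without and 24.5 to 38.4 CPM with irradiation (0.78 ± 0.31), and was not called except without the filter on low counts or in a fit of these 2 groups alone. Aldh1a1, at 12.2 to 17.3 CPM without and 18.2 to 24.0 CPM with irradiation, did not overlap between the groups but was not called either (0.47 ± 0.32). Of the 6 genes tested 2 were called with irradiation in untreated cells and 1 in VIP-treated cells, all higher. The shares of all genes called were 4.46% (2.87% higher) and 7.78% (4.32% higher). All of these comparisons draw on the same 16 cultures and share groups, so that the untreated irradiated cultures stand in both the rise with irradiation and the fall with VIP.

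The difference between the VIP effects after and without irradiation was -0.53 ± 0.40 on the log2 scale for Rbp2, 0.10 ± 0.15 for Adh1 and -0.32 ± 0.43 for Aldh1a1. For Dhrs3, Isx and Rara it was between -0.05 and -0.01. This interaction was called for none of the 6 genes tested, and for 0 of the 9976 genes tested by edgeR, with 634 at an unadjusted p under 0.05.

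**Figure D2:**
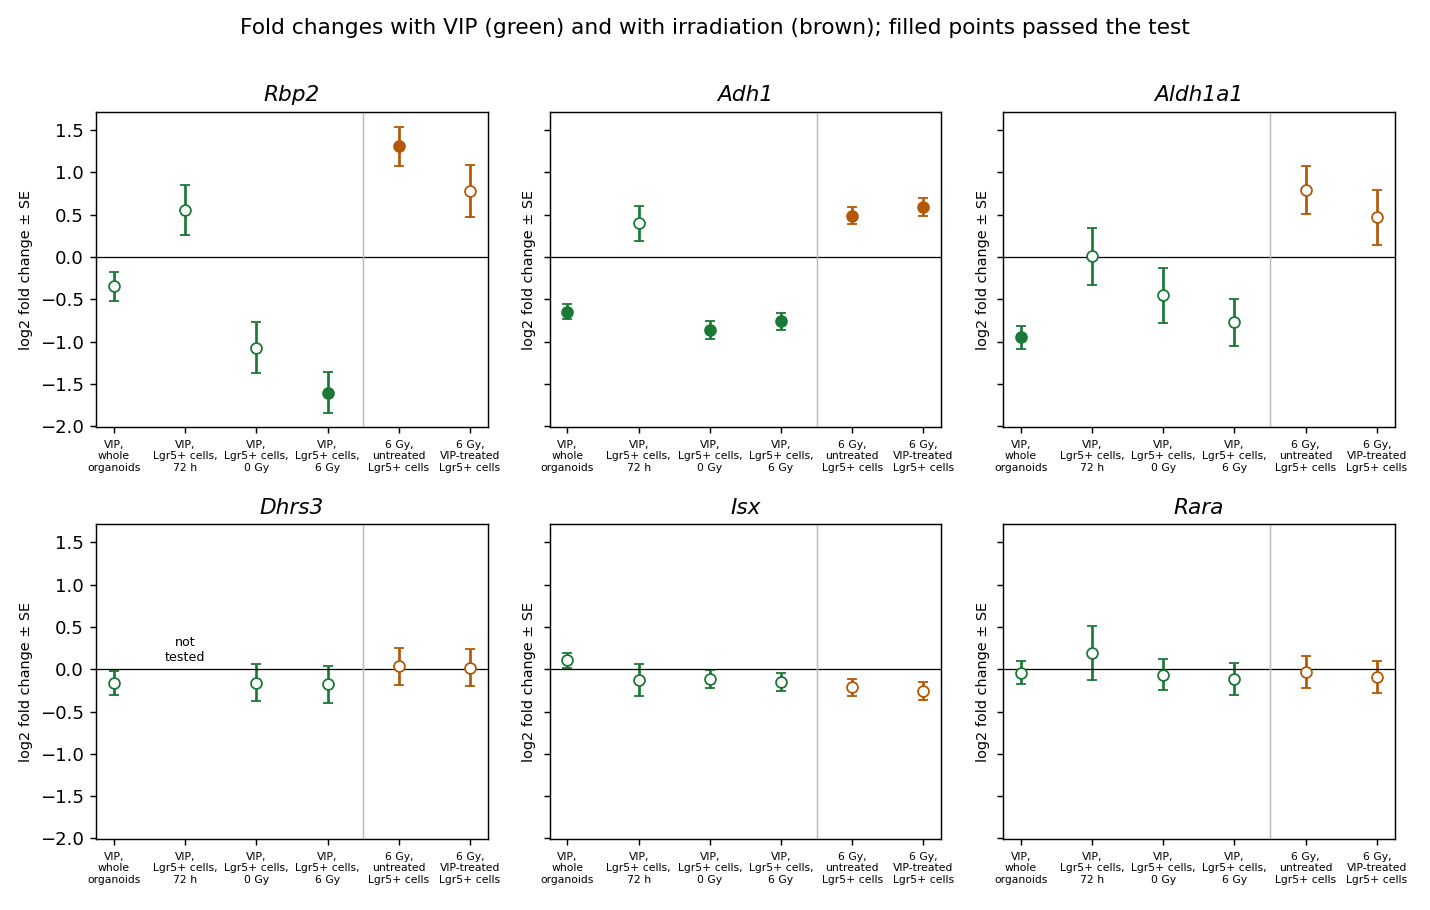
Log2 fold changes with their SE from the edgeR fit for the 6 genes tested, with VIP (green) in 4 settings and with 6 Gy (brown) in 2, with filled points for genes called at an adjusted p of at most 0.05. Adh1 lies at -0.65, -0.86 and -0.76 with VIP in whole organoids and in the irradiation experiment and at 0.40 in the 72 h sorted cells, while Isx and Rara lie between -0.25 and 0.19 throughout.

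Of the 53 other retinoid genes 26 were tested in the irradiation experiment. With VIP none of the 26 was called without irradiation by edgeR or DESeq2 (5 at an unadjusted p under 0.05), and after irradiation Rdh10 alone was called, at 27.6 to 46.5 CPM without and 57.5 to 75.4 CPM with VIP (0.68 ± 0.13, adjusted p = 0.0208 by edgeR, higher in 4 of 4 mice). With irradiation 4 were called in untreated cells. Scarb1, the scavenger receptor that takes up carotenoids, rose by 0.63 ± 0.16 (adjusted p = 0.0210) in 4 of 4 mice. Rbp4, which carries retinol in plasma, rose by 1.15 ± 0.25 (adjusted p = 0.00566) in 3 of 4 mice. Ttr fell by 0.60 (SE 0.15, adjusted p = 0.0170) and Dhrs4 by 0.35 (SE 0.077, adjusted p = 0.00661), each in 4 of 4 mice. In VIP-treated cells 4 were called with irradiation, each in the same direction in 4 of 4 mice. Rdh10 rose by 0.91 ± 0.14 (adjusted p = 8.20e-05), Rbp4 rose by 0.97 ± 0.28 (adjusted p = 0.0277), Rdh11, a retinal reductase, fell by 0.75 (SE 0.15, adjusted p = 0.00137) and Dhrs4 fell by 0.27 (SE 0.076, adjusted p = 0.0239).

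Leaving out single mice ended several of these calls. After irradiation of untreated cells Scarb1 lost its call without any 1 of the 4 mice, Rbp4 without mouse 3 or 4, Ttr without mouse 2 or 4 and Dhrs4 without mouse 2, 3 or 4, with adjusted p up to 0.1004, 0.114, 0.223 and 0.147 over their alternatives. Without the mouse block Scarb1 there, Rdh10 with VIP after irradiation, and Rbp4 and Hnf4g with irradiation of VIP-treated cells were not called. DESeq2 called neither Scarb1 nor Rbp4 there. Rdh10 with VIP after irradiation lost its call without mouse 1, 3 or 4 and with DESeq2 (adjusted p up to 0.208). In VIP-treated cells Rdh10 and Rdh11 were called with irradiation in all 11 alternatives, while Rbp4 lost its call without mouse 1 or 3 and with DESeq2 and Dhrs4 without mouse 3 or 4 (adjusted p up to 0.222 and 0.226). Among 5 intestinal transcription factors, Cdx1 and Hnf4g fell with irradiation in untreated cells by 0.42 and 0.51 on the log2 scale (SE 0.083 and 0.13, edgeR adjusted p = 0.0026 and 0.0168) and in VIP-treated cells by 0.34 and 0.41 (SE 0.082 and 0.13, adjusted p = 0.0103 and 0.0427), in 3 of 4 mice for Cdx1 in untreated cells and in 4 of 4 otherwise, and Cdx2, Hnf4a and Gata4 were not called. The calls of Cdx1 and Hnf4g were each lost without at least 2 of the mice (adjusted p up to 0.0741 and 0.131 in untreated and 0.0580 and 0.146 in VIP-treated cells).

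**Figure D3:**
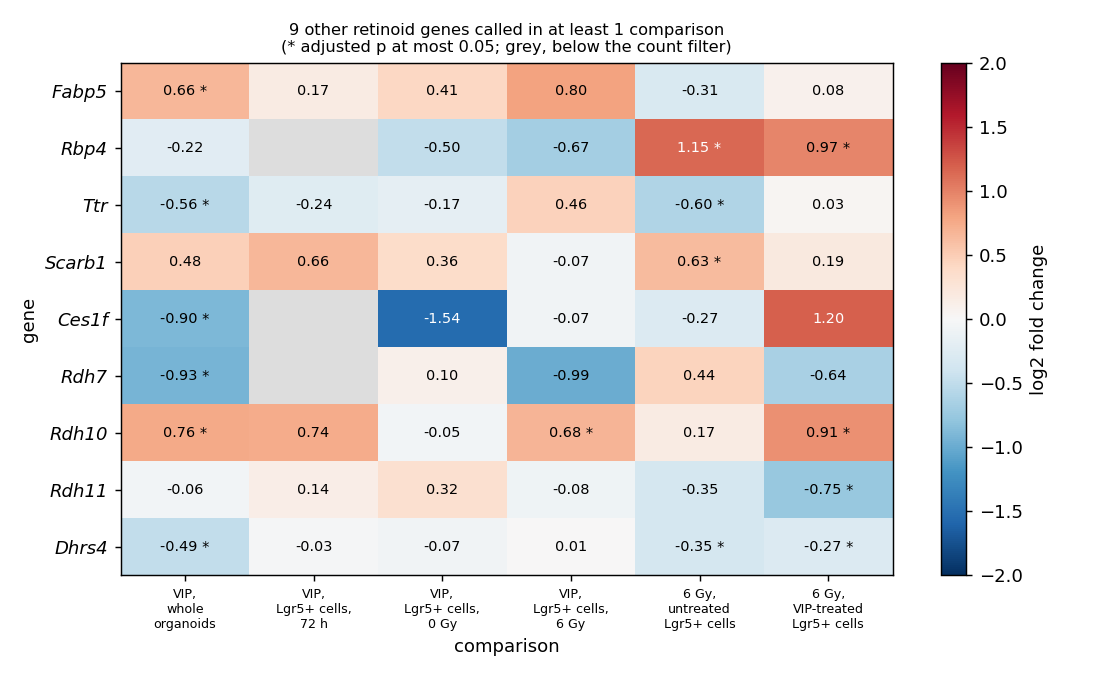
Log2 fold changes of 9 other retinoid genes called in at least 1 of the 6 VIP and irradiation comparisons, with a star for calls and grey for genes below the count filter. Rdh10 is starred at 0.76 with VIP in whole organoids, at 0.68 with VIP after 6 Gy and at 0.91 with 6 Gy in VIP-treated cells, and Dhrs4 at -0.49 with VIP in whole organoids and at -0.35 and -0.27 with irradiation.

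Markers of absorptive enterocytes, the cells in which Rbp2 is best known, moved beside Rbp2, Adh1 and Aldh1a1 in the irradiation experiment. The summed level of 10 such markers was 1044 to 1465 CPM in untreated, not irradiated cells, 725 to 989 CPM with VIP, 1322 to 2894 CPM after irradiation and 1008 to 1112 CPM after irradiation with VIP, and 1 marker (Lct) was at 0 in the VIP-treated, not irradiated group. Of the 9 markers tested 2 were called lower with VIP without irradiation (median log2 fold change -0.55) and 1 after it (median -0.86, all 9 fitted below 0). With irradiation 4 were called higher in untreated cells (median 0.87) and 0 by edgeR in VIP-treated cells (3 at an unadjusted p under 0.05, median 0.57, all 9 fitted above 0). Fabp1, the liver-type fatty acid-binding protein of enterocytes, fell with VIP by 0.95 without and by 1.37 after irradiation and rose by 0.87 with irradiation. The culture with the highest summed level, untreated irradiated mouse 4 at 2894 CPM, was also the highest of the 16 for Rbp2 and Aldh1a1. The part of enterocyte content in the changes of the retinoid genes was not tested.

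In whole organoids the summed enterocyte markers were lower with VIP in each of the 3 mice with both cultures. The sum went from 14040 to 12170 CPM in mouse 1, from 14520 to 13880 CPM in mouse 2 and from 12960 to 10690 CPM in mouse 3. By single markers the direction was mixed, with a median log2 fold change of 0.06, 6 of 10 fitted above 0 and 4 below, and of 10 tested Alpi was called higher (1.35 ± 0.22) and Fabp1 lower (-0.49 ± 0.091). Goblet cell markers were called higher in 6 of 7 cases with VIP in whole organoids, and 0 of 6 Paneth cell, 0 of 7 stem cell, 1 of 6 enteroendocrine (higher) and 0 of 4 tuft cell markers tested were called. With VIP in the irradiation experiment all 6 Paneth markers were fitted below 0, with medians of -0.41 without and -0.58 after irradiation, and 0 of 6 were called by edgeR in either case (5 and 6 at an unadjusted p under 0.05). Goblet markers were fitted below 0 in 6 of 7 cases both without (median -0.36, 0 called by edgeR, 2 at an unadjusted p under 0.05) and after irradiation (median -0.66), where Fcgbp was called lower. The stem cell gene Olfm4 was called higher with VIP both without (0.57 ± 0.067) and after irradiation (0.35 ± 0.068). With irradiation of untreated cells 5 of 7 goblet, 6 of 6 Paneth and 2 of 6 enteroendocrine markers were called higher and 2 of 7 stem cell markers lower. In VIP-treated cells the same counts were 3, 6, 5 and 2. Their part in the retinoid genes was not tested.

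**Figure D4:**
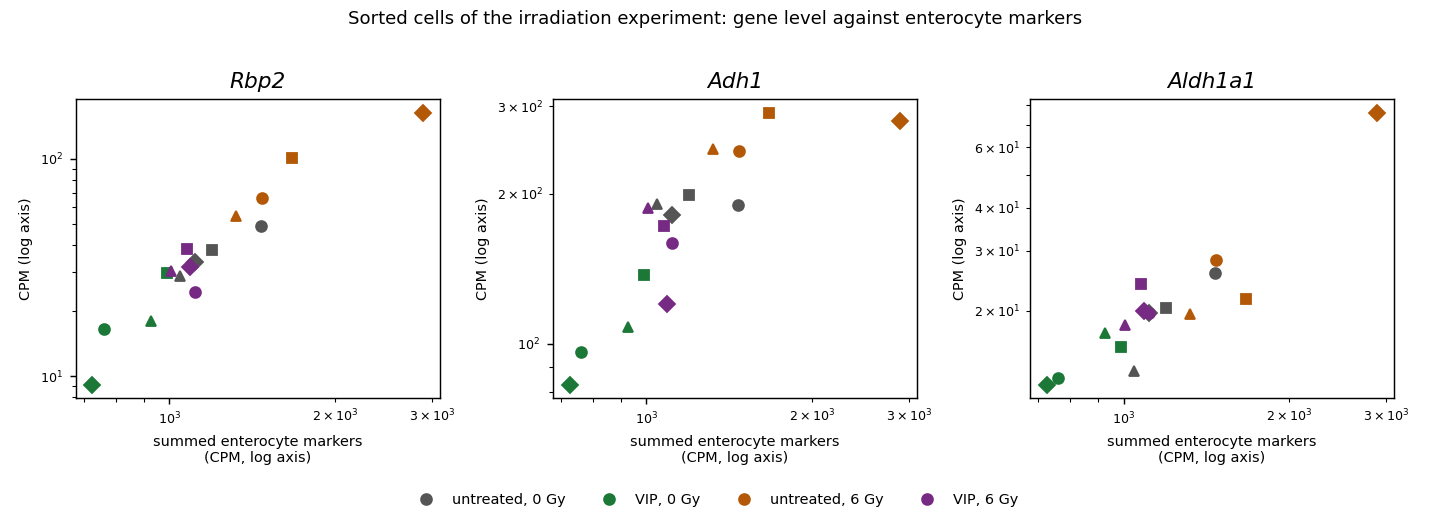
CPM of Rbp2, Adh1 and Aldh1a1 against the summed CPM of 10 enterocyte markers (both on log axes) in the 16 cultures of the irradiation experiment, coloured by group, with the symbol of each mouse as in the plot of levels. For Rbp2 and Adh1, VIP-treated cultures without irradiation lie towards the lower left (725 to 989 CPM of markers). Untreated irradiated cultures lie towards the upper right there (1322 to 2894 CPM), though an untreated, not irradiated culture reaches 1465 CPM of markers. For Aldh1a1 the groups overlap, and untreated irradiated mouse 4 (75.7 CPM) stands apart.

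The untreated cultures also gave the levels of the genes in sorted cells and in whole organoids. The genes were selected on their changes with VIP and irradiation and not on this comparison, though with earlier results of these data known. Untreated sorted Lgr5-EGFP+ cells (8 cultures of both experiments without irradiation) were set against untreated whole organoids (3 cultures). The compartments differ in experiment, mice, genotype of the mice and cell sorting as well, which cannot be told apart here. Rbp2 was 16.3-fold lower in sorted cells, at 20.2 to 82.1 CPM against 536 to 1281 CPM (log2 difference -4.03 ± 0.36, adjusted p = 4.85e-06 by edgeR). Adh1 was 9.53-fold lower, at 47.2 to 199 CPM against 1479 to 1545 CPM (-3.25 ± 0.30, adjusted p = 7.38e-06), and Aldh1a1 5.98-fold lower, at 11.5 to 54.1 CPM against 109 to 199.9 CPM (-2.58 ± 0.33, adjusted p = 8.34e-05). Dhrs3 was 2.42-fold lower, at 6.58 to 23.2 CPM against 29.8 to 54.1 CPM (-1.28 ± 0.25, adjusted p = 0.00181). None of these 4 overlapped between the compartments, but the share of all genes without overlap is not given here, so nothing is read from this.

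Isx (-0.07 ± 0.21, adjusted p = 0.810) and Rara (-0.32 ± 0.19, adjusted p = 0.199) were not called by edgeR between the compartments. Isx was at 54.3 to 78.6 CPM in the sorted cells of the 72 h experiment and at 96.2 to 133 CPM in those of the irradiation experiment, the former below all 3 whole organoid cultures (96.7 to 123 CPM) and the latter overlapping them. Rara was at 16.4 to 27.8 CPM in sorted cells and 27.3 to 31.9 CPM in whole organoids. Thus 4 of 6 genes tested were called, all lower, where 35.3% of 10649 genes were called and 17.7% lower. The median log2 difference was -1.93 for the 6 genes and -3.30 for the 10 enterocyte markers, all of which were called lower, against -0.08 over all genes.

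Of the other retinoid genes 28 were tested between the compartments and 11 called. Lower in sorted cells were Adh4 (-4.77 ± 0.54, adjusted p = 3.38e-05 by edgeR), Cd36 (-3.84 ± 0.52), Rdh7 (-3.43 ± 0.35), Ces1f (-2.72 ± 0.34), the carotenoid-cleaving Bco2 (-2.05 ± 0.29) and Dgat1, an acyltransferase that can esterify retinol (-1.42 ± 0.21). Higher were Sdr16c5 (2.43 ± 0.45, adjusted p = 0.00134), Fabp5 (1.32 ± 0.43), Ttr (1.20 ± 0.17), Dhrs4 (0.75 ± 0.28) and Adh5 (0.56 ± 0.17). The regulator Gata4 was lower as well (-1.88 ± 0.34, adjusted p = 0.00122). With sorted cells of the irradiation experiment alone 18 of the other retinoid genes were called.

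**Figure D5:**
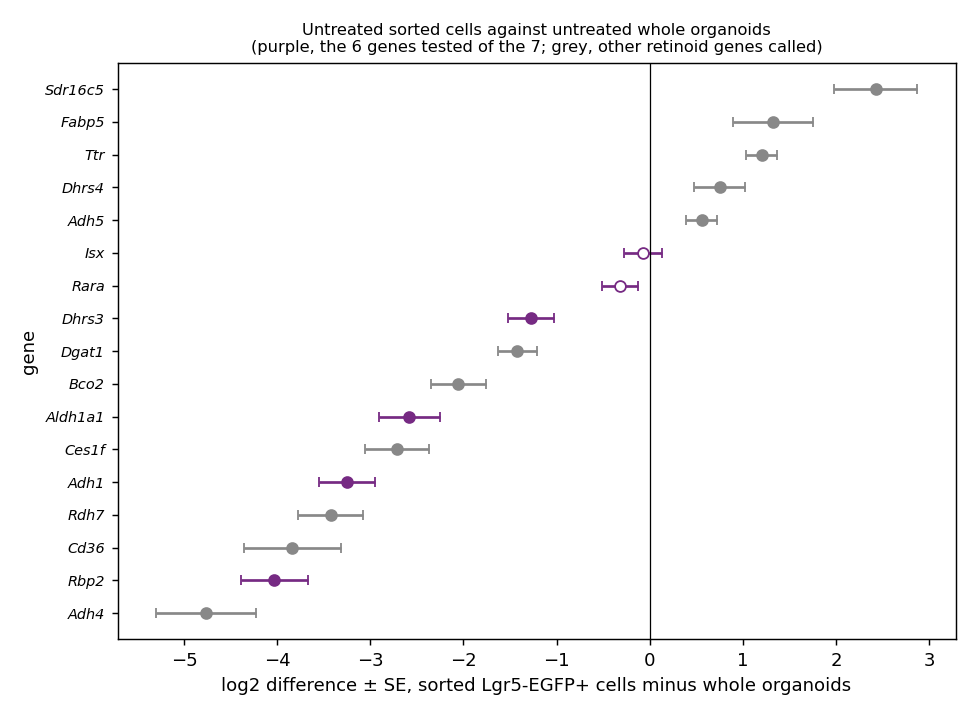
Log2 differences with their SE between untreated sorted cells and untreated whole organoids, with the genes of interest in purple, the other retinoid genes called in grey, and open symbols for genes not called. Rbp2 at -4.03, Adh1 at -3.25 and Aldh1a1 at -2.58 lie far below 0, and Isx at -0.07 and Rara at -0.32 near it.

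Across the 16 cultures of the irradiation experiment, which share 4 mice, log2 CPM after centring on each mouse followed a common course for part of the set. Pearson's r was 0.932 between Rbp2 and Adh1, 0.876 between Rbp2 and Aldh1a1 and 0.761 between Adh1 and Aldh1a1, whereas Isx and Rara stood between -0.167 and 0.124 with these 3. Among 6024 genes with a mean of at least 20 CPM the closest to Rbp2 were Apoa1 (0.949), Adh1 (0.932) and Spink1 (0.926), the closest to Adh1 were Rbp2, Fabp1 (0.900) and Rnase1 (0.898), and the closest to Aldh1a1 were Prxl2a (0.903), Sis (0.898) and Apoa1 (0.890). Apoa1, Fabp1 and Sis are on the list of enterocyte markers. The other 3 genes had other neighbours, among them Bicdl2 (0.879) and Cyhr1 (0.747) for Dhrs3, Cyb5r3 (0.890), Dhrs11 (0.884) and Rbis (0.874) for Isx, and Sugp1 (0.812), Fastk (0.801) and Gcsh (0.801) for Rara. These values describe the 4 groups as much as the genes.

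Crabp2 was all but undetected. One UMI was counted in all whole organoids, in untreated mouse 2, and 1 in the irradiation experiment, in VIP-treated irradiated mouse 3. A count of 0 over a whole group allows a level of up to 0.126 CPM in VIP-treated whole organoids and of up to 0.459, 0.526 and 0.510 CPM in the 3 sorted groups of the irradiation experiment without a UMI (3 UMIs over the group's total, counting error only). Crabp2 passed no filter and was not tested.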

How the data were processed

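RNA of mouse jejunal organoids was measured in 37 libraries of 31 cultures, primed at the poly(A) tail. Each table as deposited holds whole, raw counts of UMIs, which the authors obtained with version 1.0 of the Drop-seq tools, reads having been aligned to GRCm38 and assigned to genes of GENCODE M25. No column lacked a sample. Since only 3′ ends were captured, levels of different genes are not compared.

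Technical libraries of a culture were summed. The fits used edgeR 4.0.16 under R 4.3.3 (TMM factors, low counts removed by filterByExpr per group, quasi-likelihood test, mouse as a block, Benjamini-Hochberg adjustment over all genes tested, threshold 0.05). The irradiation experiment was 1 fit of 16 cultures. In whole organoids VIP-treated mouse 4 had no untreated culture, so with the block the VIP fold changes there rest on the mice with both cultures. Same-numbered cultures are of the same mouse by their labels. As a check, departures from the group mean were correlated over genes within each such pair, at 0.266 to 0.634 in whole organoids, 0.0298 to 0.214 in the 72 h sorted cells and -0.0706 to 0.158 in the irradiation experiment. Log2 CPM used a prior count of 2. In the VIP and irradiation comparisons p-values measure the spread left after the mouse block, which is that of differences within mice. Between compartments, where no block was used, they measure the spread between cultures of different mice. Precision is limited by UMI counts, and floors cover counting error only.

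The 7 genes, the lists of 53 other retinoid genes, 5 regulators and cell type markers were chosen with earlier results of these data known. The genes named are the 7, every other retinoid gene and regulator called in a comparison, the 3 genes closest to each of the 7, and leading markers. A few genes that this rule takes are not reported here. Lgr5, Olfm4, Ascl2, Gkn3, Epcam, Lct, Alpi, Fabp1, Fcgbp and Aldh1a7 were named after their values were seen. Promoter words were chosen with the sequences in view. The test was tested on simulated data. Alternatives were DESeq2 1.42.0, RLE factors, library size alone, no filter, at least 10 counts in every culture, no mouse block, each mouse left out, other library choices and only the 2 groups compared.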

Additional observations from a re-analysis of the deposited data

Results flagged for a closer look

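Among groups of 4 cultures, 1 value of the set stood apart from its group. Aldh1a1 in untreated irradiated mouse 4 was at 75.7 CPM (85 UMIs), against 19.5 to 28.2 CPM in the other 3 mice, and its gap to the nearest of them was 0.845 of the group's range, above Dixon's 95% critical value for 4 samples. Of 42 groups checked in this way, chance alone would be expected to flag about 1 in 20. The same culture had the highest summed enterocyte markers (2894 CPM) and the highest Rbp2 (163 CPM) of the irradiation experiment. The 3 untreated whole organoid cultures lie outside a check for groups of 4. Among them mouse 3 had Rbp2 at 1281 CPM, against 629 and 536 CPM, and Dhrs3 at 29.8 CPM, against 52.7 and 54.1 CPM.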

How the results depend on the processing

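The 7 genes were chosen on their VIP and irradiation changes, and every alternative refits the same samples. Their calls in those comparisons describe how the fits vary and are no further evidence for the changes. Adh1 was called in every alternative with VIP in whole organoids and in the irradiation experiment and with irradiation in both treatments. Rbp2 was called in every alternative with VIP after irradiation (log2 fold change -1.79 to -1.25) and with irradiation in untreated cells (0.92 to 1.64). Aldh1a1 in whole organoids lost its call only without the replicate block. That fit called 1 of the 7 genes (2 with the block) and 0 of the other retinoid genes (7 with it) in whole organoids, and 0 of the latter with VIP after irradiation (1 with it). In whole organoids DESeq2 called 4 other retinoid genes, and leaving out single mice gave 4 to 9. Without the filter on low counts 3 of the 7 were called in whole organoids (Rbp2 added), with VIP after irradiation and with irradiation of untreated cells (Aldh1a1 added in both), against 2 in each. In the 72 h sorted cells, where none was called, leaving out single mice gave 0 to 1 of the 7 and 0 to 1 of the others. With VIP without irradiation, no filter and a fit of only the 2 groups each called 2 of the 7 (Adh1 and Rbp2, against 1) and 1 other retinoid gene (Ces1f, against 0). With VIP after irradiation the others numbered 0 by DESeq2, 4 without the filter, 2 in the 2-group fit and 0 to 1 without single mice. With irradiation of untreated cells they numbered 2 by DESeq2 and 0 to 4 without single mice (4 in the main analysis). With irradiation of VIP-treated cells no filter and the 2-group fit each called 2 of the 7 (against 1), and the others numbered 7 without the filter and 2 to 4 without single mice (against 4). Between compartments the other retinoid genes called were 19 without the filter, 4 with at least 10 counts everywhere and 18 with the irradiation experiment only (against 11), and the log2 difference of Isx turned to 0.17, uncalled in each case. The causes were not tested.

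Counts over all genes ranged from 99 (no replicate block) to 1668 (without mouse 3) around 614 with VIP in whole organoids, from 1 (no replicate block) to 17 (no filter) around 6 in the 72 h sorted cells, from 32 (without mouse 4) to 184 (2-group fit) around 74 and from 5 (without mouse 3) to 110 (no filter) around 22 with VIP in the irradiation experiment, from 176 (without mouse 4) to 643 (without mouse 1) around 445 and from 426 (without mouse 4) to 872 (no filter) around 776 with irradiation, and from 1609 (without untreated whole organoids of mouse 2) to 5924 (irradiation experiment only) around 3763 between compartments. Depth limits the sorted cells most, where Aldh1a1 rests on 7 to 85 UMIs per culture.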
